A study of Mus musculus with 3 samples.

Results

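The cells described here are 62 lung barcodes that were proposed as club and secretory epithelial cells, out of 12458 barcodes past the quality filters (at least 1000 UMIs, counted RNA molecules, and 500 detected genes, and at most 10% of UMIs from mitochondrial genes). They were chosen by measured values: Cyp2f2 and Scgb3a2 together at 4 UMIs or more, at least 1 UMI of Epcam, Cdh1, Krt8 and Krt18, fewer than 8 UMIs of the alveolar type 2 (AT2) genes Slc34a2, Lamp3, Cxcl15 and Hc, and at most 1 UMI each of Ptprc, of Marco with Siglecf, and of Cdh5. The rule found 9 cells in WT Healthy, 39 in WT Tumor and 14 in PPARγ-/- Tumor. Checked against markers, 50 of the 62 cells carried the gene set of multiciliated cells, and only a few carried that of a secretory cell. The set is therefore called the Cyp2f2/Scgb3a2 gate, after the genes that define it.

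All mice carried Ccsp-rtTA and TetO-EGFRL858R, a pair of transgenes in which doxycycline switches on a mutant human EGFR through a promoter of Scgb1a1, the gene for the club cell secretory protein. WT Healthy mice had these alone, WT Tumor mice also had Pparγfl/fl, and PPARγ-/- Tumor mice had Pparγfl/fl and Csf1rCre, which puts Cre recombinase in the monocyte and macrophage lineage and not in the epithelium. Mice were 16 to 20 weeks old, the labels give doxycycline chow at 625 ppm with no exception for the healthy group, and cells of 3 mice were pooled into 1 library per group. Alveolar macrophages, other CD11b+ macrophages, T cells and CD45- EPCAM+ epithelial cells were sorted from collagenase-digested lung and mixed evenly, so the number of epithelial cells in a library is set by the sort.

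Club cells are the non-ciliated secretory cells of the small airways. They release secretoglobins, hold cytochrome P450 enzymes such as Cyp2f2 that act on inhaled chemicals, and can give rise to ciliated cells. Multiciliated cells carry motile cilia that move mucus, a programme switched on by the transcription factor Foxj1, and their cilia are built on a microtubule axoneme with dynein motors, radial spokes and a central pair.

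Each library held between 30454790 and 46148658 UMIs. Members had medians of 10224, 7608 and 7009.5 UMIs per cell and 3874, 3212 and 3140.5 genes in WT Healthy, WT Tumor and PPARγ-/- Tumor, the order used for all triples of values below. Scrublet marked 0 members as doublets. Pairs of libraries shared 4 to 6 barcodes, and 1 member barcode was also found in another library. Xist, expressed from the inactive X chromosome of females, had 83, 0 and 0 UMIs in the members, and the Y-linked Ddx3y had 0, 13 and 3. The labels say that both sexes were used about equally, so a difference between WT Healthy and the tumour libraries cannot be told apart from one of sex, or from the floxed alleles. Groups were not tested against each other, since each is a single library with 9, 39 or 14 members, and intervals (exact Poisson or exact binomial, 95%) cover counting error only. CPM are UMIs summed over the cells of a set and scaled to a total of 1000000.

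The gate held 20.9% of the gated epithelial cells in WT Healthy (9 of 43, exact binomial interval 10.04 to 36.04%), 11.1% in WT Tumor (39 of 350, 8.05 to 14.9%) and 6.48% in PPARγ-/- Tumor (14 of 216, 3.59 to 10.6%). The gated epithelium is the sum of the gate, 335 cells of an AT2 gate, 137 cells of other epithelium and 75 cells with both Cyp2f2 or Scgb3a2 and AT2 genes past the limits. Near the threshold, 11 members had a sum of Cyp2f2 and Scgb3a2 of 4 to 7 UMIs (1, 7 and 3 cells), and 6 cells that met every other limit had a sum of 1 to 3, all of them in WT Tumor.

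Clustering the 62 cells on their variable genes gave a group of 50 (9, 30 and 11 cells) and a group of 12 (0, 9 and 3). The 50 cells were led by Igfbp5, Ccdc153, AU040972, Tmem212, Dnah5, Dnah6, Dynlrb2, Fam183b, Tuba1a and Dnah12, and are called ciliated-like. Their UMIs of 15 ciliated cell markers ranged from 46 to 326 per cell with a median of 157.5. Foxj1, the master regulator of motile cilia, was detected in 49 of the 50. The group of 12 had 0 to 9 UMIs of the ciliated markers per cell, and 4 kinds of cells were seen, described below by genes that they held.

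**Figure D1:**
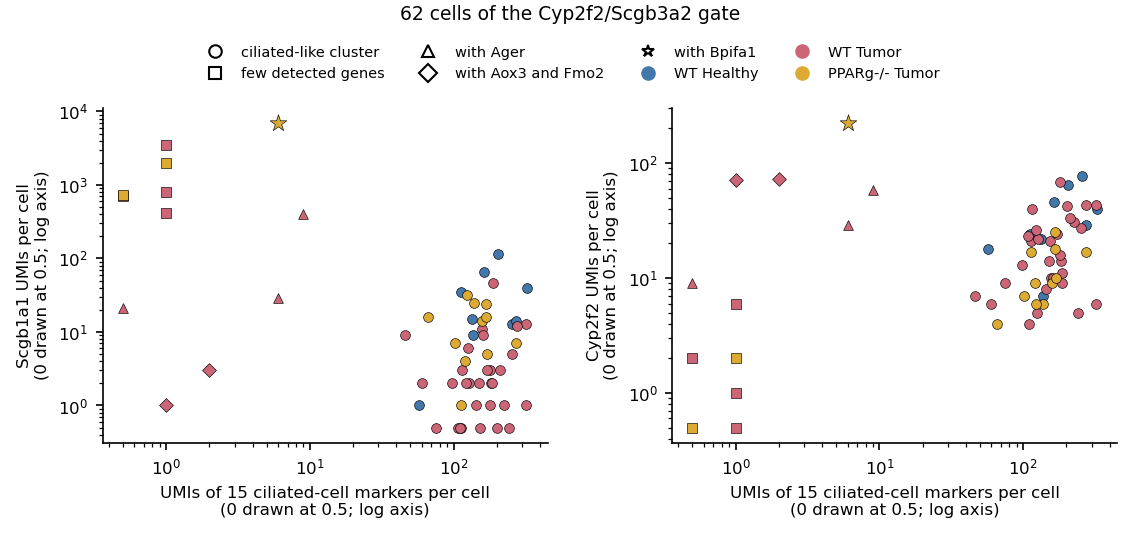
Each point is 1 of the 62 cells, with the UMIs of 15 ciliated cell markers on the horizontal axis and those of Scgb1a1 (left) or Cyp2f2 (right) on the vertical axis, all on log axes with 0 drawn at 0.5; shape gives the kind of cell and colour the library. The 50 ciliated-like cells sit at 46 or more marker UMIs with at most 115 Scgb1a1 UMIs, whereas the 6 barcodes with few genes and the Bpifa1 cell sit at 409 Scgb1a1 UMIs or more.

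The ciliated-like cells had 3097 to 17436 UMIs (median 8240.5), a median of 3375.5 genes and 1.98 to 9.96% mitochondrial UMIs (median 6.25%). The 15 ciliated markers summed to 17890, 20190 and 18910 CPM in these cells, against 201, 147 and 139 CPM in the AT2 gate and 969, 1575 and 2551 CPM in other epithelium. Every library's ciliated-like cells stood above both other sets, and the 3 libraries lay close together. These cells were grouped by clustering and named for their ciliated markers, so both results were at least partly fixed by that choice. Over all members, which the gate picked without ciliated markers, the sums were 17890, 15220 and 13440 CPM. These also stood above both other sets in each library. Basal cell markers were at 0 UMIs in all 3 libraries, which allows at most 39.7, 14.9 and 43.7 CPM. AT2 markers, which the rule limited, summed to 312, 909 and 1055 CPM, against 174100 to 238700 CPM in the AT2 gate. Macrophage markers, which could come from sorted macrophages, summed to 689, 643 and 545 CPM, within the range of 404 to 854 CPM in the AT2 gate, and their part in the values was not tested.

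The defining gene of the gate, Cyp2f2 (ENSMUSG00000052974, chromosome 7, 27119909 to 27133660 of GRCm38, plus strand), which encodes a P450 that oxidises naphthalene, is given as a description. It reached 3519, 2470 and 1517 CPM in the ciliated-like cells. Per cell the range was 7 to 77 UMIs in WT Healthy (median 29), 4 to 68 in WT Tumor (median 15) and 4 to 25 in PPARγ-/- Tumor (median 9). The ranges overlapped, with the lowest median in PPARγ-/- Tumor.

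Cells were also picked by Foxj1 in place of the gate genes, as all 53 cells with at least 1 Foxj1 UMI and 1 epithelial UMI that met the leukocyte and endothelial limits (9, 31 and 13 cells), a set chosen after the values were seen. All 53 had Cyp2f2, 51 met the minimum of the gate and 49 were members. Cyp2f2 stood at 3519, 2320 and 2589 CPM in them, with 7 to 77, 1 to 68 and 4 to 138 UMIs per cell. In PPARγ-/- Tumor, 2 of the 13 cells, which failed the AT2 limit, had 93 and 138 Cyp2f2 and 5677 and 17852 Scgb1a1 UMIs, and the level without them was 1517 CPM. After each cell was thinned to 1000 UMIs, Cyp2f2 was detected in 100% (exact interval 66.4 to 100%), 93.5% (78.6 to 99.2%) and 92.3% (64.0 to 99.8%) of the Foxj1 cells. The AT2 gate and other epithelium were drawn with fewer than 4 UMIs of Cyp2f2 and Scgb3a2, so their low Cyp2f2 was fixed by the rule. Cells that were not chosen by these genes gave the background, added after seeing the data. Leukocytes (at least 2 Ptprc UMIs), which should lack Cyp2f2, had it in 0.237%, 0.235% and 0.328% of thinned cells and 1.38%, 1.03% and 0.958% of unthinned ones, at 4.25, 12.4 and 7.49 CPM and median depths of 6339, 5321 and 3833.5 UMIs, against 10224, 8096 and 8128 in the Foxj1 cells. Cells with AT2 genes, no limit on Cyp2f2 and no Foxj1 had it in 9.68%, 13.5% and 17.6% of thinned cells, at 67.4, 281 and 327 CPM. Barcodes of 10 to 100 UMIs, which hold free RNA, had 99.8, 44.6 and 61.0 CPM. The Foxj1 cells stood above these 3 in each library.

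**Figure D2:**
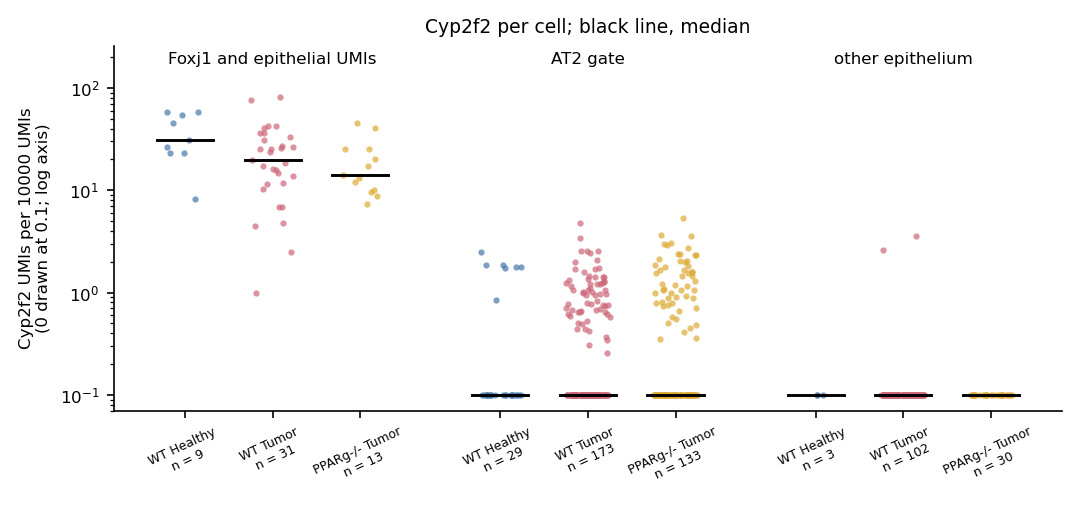
Cyp2f2 UMIs per 10000 UMIs of each cell (vertical log axis, 0 drawn at 0.1) in the Foxj1 cells, the AT2 gate and other epithelium of the 3 libraries, with black lines at the medians. The AT2 gate and other epithelium were drawn with fewer than 4 UMIs of Cyp2f2 and Scgb3a2, which bounds their values, while the Foxj1 cells were drawn without those genes and hold 7 to 77, 1 to 68 and 4 to 138 Cyp2f2 UMIs.

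Scgb1a1 (ENSMUSG00000024653, chromosome 19, 9083636 to 9087958, minus strand), the main secreted protein of club cells, had another pattern than Cyp2f2. In the ciliated-like cells it stood at 3304, 570 and 1789 CPM, with medians of 15, 2 and 14 UMIs and highest cells at 115, 46 and 32. In the AT2 gate it was 279, 118 and 72.6 CPM. In free RNA it was 19900, 3195 and 4601 CPM, above the ciliated-like level in each library, and how much of the Scgb1a1 of these cells came from free RNA was not tested. The ciliated-like cells held 307 Scgb1a1 beside 327 Cyp2f2 UMIs in WT Healthy, 141 beside 611 in WT Tumor and 151 beside 128 in PPARγ-/- Tumor, so Scgb1a1 exceeded Cyp2f2 in PPARγ-/- Tumor alone. In free RNA Scgb1a1 was far above Cyp2f2 in all 3 libraries (19900 against 99.8, 3195 against 44.6 and 4601 against 61.0 CPM). Scgb3a2, a secretoglobin and the other gate gene, was at 118, 28.3 and 47.4 CPM and at no more than 4 UMIs in any ciliated-like cell, while each had at least 4 Cyp2f2 UMIs, enough by itself to pass the gate. Muc5ac, Muc5b, Spdef, Foxa3, Bpifa1 and Bpifb1, genes of goblet and mucous cells, were all at 0 UMIs there. They are among 9 genes at 0 in a list of 15 goblet and mucosal secretory genes. The whole list was not absent, and summed to 441, 344 and 225 CPM in the ciliated-like cells. In the AT2 gate it summed to 12.9, 9.54 and 8.25 CPM.

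Other genes often listed as club cell markers were high in the ciliated-like cells. Cbr2, a carbonyl reductase, stood at 7436, 5190 and 5747 CPM with per-library medians of 86, 41 and 36 UMIs, and Aldh1a1, an aldehyde dehydrogenase that makes retinoic acid, at 2066, 2352 and 1659 CPM. The 18 club cell markers summed to 21020, 14840 and 15040 CPM in these cells, against 5327, 3153 and 4090 CPM in the AT2 gate. The rule held down 2 of the 18, Cyp2f2 and Scgb3a2, in the AT2 gate and set a minimum for their sum in the members. Part of the difference was therefore fixed by the rule. Chad, Upk3a and Gabrp of the 18 were at 0 in the ciliated-like cells.

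The other 12 cells were of 4 kinds. In WT Tumor (4) and PPARγ-/- Tumor (2), 6 barcodes had few genes (520 to 1070) on 1645 to 6706 UMIs, with Scgb1a1 at 409 to 3540 UMIs, or 24.9 to 52.8% of all their UMIs. Their mitochondrial share was 0 to 1.34% and their ribosomal protein share 15.7 to 37.4%, against 1.497 to 5.991% ribosomal in the ciliated-like cells. They held 7 to 114 Scgb3a2 UMIs, 0 to 6 Cyp2f2 UMIs and at most 1 UMI of the ciliated markers. Their summed Scgb1a1 was 745 times their Cyp2f2.

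A single PPARγ-/- Tumor cell of 27987 UMIs and 3733 genes had the profile of a mucosal secretory cell. It had 6915 UMIs of Scgb1a1 (24.7%), 5036 of Bpifa1, an airway lining protein, 1393 of Scgb3a1, 507 of Scgb3a2 and 222 of Cyp2f2, with 263 of the antimicrobial lectin Reg3g and 66 of the gel-forming mucin Muc5b. This cell held all of the Bpifa1 and Scgb3a1 UMIs of the PPARγ-/- Tumor members, and Scgb3a1 over all members was 10.8, 0 and 11680 CPM. The other 5 cells, all of WT Tumor, were 3 with Ager, a receptor of alveolar type 1 (AT1) cells, at 20, 56 and 130 UMIs and Cyp2f2 at 9, 58 and 29, and 2 with Aox3 and Fmo2, enzymes of xenobiotic metabolism. These 2 had Aox3 at 7 and 5, Fmo2 at 3 and 7 and Cyp2f2 at 71 and 72 UMIs. Aox3 and Fmo2 do not set them apart, since the Bpifa1 cell also had both, at 11 and 6. They held 30 and 17 UMIs of basal markers, with Krt5 at 7 and 1, while all other members had 0. Their macrophage markers were at 34 and 40 UMIs (Apoe at 31 and 35), above the highest of 16 in the ciliated-like cells. The part of macrophage RNA in these 2 cells was not tested. Scgb1a1 over all 62 members was 3304, 18380 and 82180 CPM. The higher values of the tumour libraries come mostly from the few-gene barcodes and the Bpifa1 cell, since the ciliated-like cells of those libraries were at 570 and 1789 CPM.

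The AT2 limit of the gate also left Scgb1a1-rich cells outside it. Cells with the gate's Cyp2f2 and Scgb3a2 minimum, 100 Scgb1a1 UMIs or more and AT2 genes at the limit or above numbered 0, 11 and 6, against 1, 5 and 3 members with as many Scgb1a1 UMIs. Those outside had Scgb1a1 medians of 523 in WT Tumor and 11764.5 in PPARγ-/- Tumor, and a highest value of 21170 UMIs. In PPARγ-/- Tumor their median Sftpc, the surfactant protein C gene of AT2 cells, was 5.5 UMIs, against 753 in WT Tumor. Among the AT2 genes of the limit, these PPARγ-/- Tumor cells had medians of 46 UMIs of Cxcl15, 1 of Slc34a2, 0.5 of Lamp3 and 0 of Hc. Cxcl15 thus made up most of their AT2 sum. In WT Tumor the medians were 79, 61, 18 and 3 in the same order. The count of 62 thus leaves out cells with the highest Scgb1a1.

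To set the gate against the rest of the epithelium, UMIs were summed per library and gate and tested with edgeR's quasi-likelihood test, with the library as a block and Benjamini-Hochberg adjustment over all genes. WT Tumor and PPARγ-/- Tumor entered, since WT Healthy had too few cells. The 2 libraries leave 1 residual degree of freedom, since the block takes out the level of each library. The p-values therefore rest on how far the gate difference varied between these 2 libraries, and on dispersion estimates shared across genes. They cover these libraries only. The gates were drawn on genes of the same cells, and a gene that goes with a gate gene, or that passed the low-count filter only through the gate where it is high, had to differ. The gate genes were left out, and counts over lists describe how the cells differ, beside the same for all genes.

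Against the AT2 gate, 9244 genes were tested, of which 1633 were higher in the Cyp2f2/Scgb3a2 gate (17.7%) and 1411 lower (15.3%), with a median log2 fold of -0.09. Against the other epithelium, which was rich in AT1 markers (22000, 21850 and 36540 CPM) and held 2 Foxj1 cells in WT Tumor, 5097 were tested, 991 were higher (19.4%) and 770 lower (15.1%), with a median of -0.08. Without TMM scaling, the fraction of calls that were higher was 70.9% instead of 53.6% against the AT2 gate and 62.9% instead of 56.3% against other epithelium.

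The genes with the largest folds over the AT2 gate were at 0 there in both libraries, so each fold is a bound against a floor of 3 UMIs over the group. AU040972 was at least 1740-fold higher (1511 and 252 CPM in WT Tumor and PPARγ-/- Tumor), Dnah12, an axonemal dynein heavy chain, and Cfap44, a cilia and flagella protein, at least 953-fold, and Tm4sf1 at least 926-fold. Pcp4l1 (at least 920-fold), Ccdc39, a ruler protein of the axoneme (870-fold), Calml4 (831-fold), Hydin, a central pair protein (817-fold), Cdhr3, a cadherin-related membrane protein (768-fold), and Ak7, an adenylate kinase of cilia (719-fold), followed. Foxj1 was at least 745-fold higher. Against other epithelium the top genes were Scgb1a1 (log2 fold 9.14 ± 0.43 SE, adjusted p 2.39e-90, or 3.83 in the ciliated-like cells alone) and, at 0 in the reference, Sult1d1, a sulfotransferase (at least 57.7-fold), A2ml1 (49.4-fold), Cmbl, Calml3 and Pigr, the polymeric immunoglobulin receptor (37.1-fold each), Dnah7a (35.0-fold), Uckl1os (29.5-fold), Sncg (28.8-fold) and Kif6 (24.7-fold). The single Bpifa1 cell held 35 of the 54 Pigr UMIs and 35 of the 84 of Sult1d1, and without it their bounds were 13.9-fold and 35.9-fold. By DESeq2, Sult1d1, A2ml1, Cmbl, Calml3, Dnah7a, Pigr and Uckl1os did not pass against other epithelium (adjusted p 0.165 to 0.308). Scgb1a1 is the only secretoglobin among these genes, but the gate gene Scgb3a2 was left out of the ranking. Against other epithelium no secretoglobin except Scgb1a1 was tested, so the ranking cannot compare it with other secretoglobins.

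Genes lowest against the AT2 gate were at 0 in the members. Adamts1, a metalloprotease, was at least 30-fold lower, Kcnj15, a potassium channel, 28.8-fold, Nrn1 22.9-fold, Il33, an alarmin made by AT2 cells, 21.4-fold, Mlc1 21.3-fold, Rbpjl 18.1-fold, Entpd1 17.2-fold, Slc26a4 14.9-fold, Inpp4b 14.7-fold and Fam102b 14.4-fold. Against other epithelium, Phactr1 was at least 28.2-fold lower, Lsp1 19.6-fold, Rbms3 11.6-fold, Filip1l 9.71-fold, Sema6d 9.38-fold, Sh3rf2, Mrc2 and Zfp462 8.90-fold each, Scx 8.41-fold and Htra1 8.09-fold. By DESeq2, which called 1111 and 551 genes higher and lower against the AT2 gate and 500 and 169 against other epithelium, Slc26a4 alone of the 10 lowest genes against the AT2 gate still passed (the other 9 had adjusted p of 0.163 to 0.250), and Phactr1, Lsp1 and Rbms3 did not pass against other epithelium (0.226 to 0.374).

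All 15 ciliated markers were tested and all were higher against both references, with median log2 folds of 9.87 (9.37 with genes at 0 set to their bounds) and 5.29. The higher share over all genes tested was 17.7% against the AT2 gate and 19.4% against other epithelium. The 7 lists of cilium genes, chosen after values were seen, are given as a description. Dynein heavy chains were higher in 12 of 12 tested against the AT2 gate (15 listed, median 10.23, or 8.56 at bounds) and 12 of 12 against other epithelium (median 5.04). Radial spoke and central pair genes were higher in 20 of 20 and 19 of 19 (medians 9.95 and 4.96). Dynein intermediate and light chains and docking proteins gave 17 of 18 and 17 of 17, dynein assembly factors 12 of 12 and 8 of 8, microtubule inner proteins and tektins 18 of 19 and 18 of 18, and intraflagellar transport and BBSome genes, which also build the primary cilium of other cells, 26 of 28 and 23 of 25.

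Values of single genes describe the programme, in a group of cells that was named for its ciliated markers. Dnah5, an outer-arm dynein (chromosome 15, 28203752 to 28472052, plus strand), stood at 1367, 1653 and 1031 CPM in the ciliated-like cells and at 0, 0.382 and 0.550 CPM in the AT2 gate. Tppp3, a tubulin-binding protein that other cells also express, was at 2099, 2914 and 2678 CPM against 55.7, 42.4 and 32.4 CPM, a log2 fold of 5.46 ± 0.27 (SE, adjusted p 8.95e-28) over the members. Foxj1 (chromosome 11, 116330704 to 116335399, minus strand) was at 926, 711 and 592 CPM against 0 in the AT2 gate in all 3 libraries. Of the regulators of multiciliated fate, Myb (291, 299 and 332 CPM) and Trp73 (118, 80.8 and 82.9 CPM) were at least 336-fold and 89-fold higher than the AT2 gate, and Rfx3, a factor that binds cilium promoters, had a log2 fold of 3.601 ± 0.42 (adjusted p 6.90e-11). Gmnc, Mcidas and Ccno, which act in cells that are still forming cilia, were at 0, 0 to 10.8 and 0 to 21.5 CPM. These 3 early regulators were thus near 0, unlike Foxj1 and Myb.

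Promoters of the ciliated markers were read because these genes move together and Rfx factors bind sites that hold GTTGCC. The motif GTTGCC, or GGCAAC on the other strand, was looked for in the 250 bases before each start in RefSeq (GRCm38.p6). It was found in 8 of the 12 ciliated markers that matched the table (66.7%), in 42 of 125 matched genes of the ciliated markers and 7 ciliary lists (33.6%), in 20.8% of genes higher than the AT2 gate, in 11.2% of those lower, in 13.3% of the matched genes tested against the AT2 gate and in 11.8% of all 27025 genes. A match is a description and not a shown site. Of 4 markers the stretches are printed here, with the motif in capitals, because each holds it within the window: Ccdc153 (chr9:44240427-44240676, plus strand), Dynlrb2 (chr8:116504765-116505014, plus), Fam183b (chr11:58801961-58802210, minus, 2 matches) and Pifo (chr3:106001498-106001747, minus, 1 of 2 starts).
Ccdc153: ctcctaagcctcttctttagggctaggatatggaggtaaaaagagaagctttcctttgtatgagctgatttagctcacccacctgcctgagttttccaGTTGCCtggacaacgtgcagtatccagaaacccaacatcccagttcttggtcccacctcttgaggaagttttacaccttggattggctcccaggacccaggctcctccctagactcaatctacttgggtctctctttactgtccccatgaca
Dynlrb2: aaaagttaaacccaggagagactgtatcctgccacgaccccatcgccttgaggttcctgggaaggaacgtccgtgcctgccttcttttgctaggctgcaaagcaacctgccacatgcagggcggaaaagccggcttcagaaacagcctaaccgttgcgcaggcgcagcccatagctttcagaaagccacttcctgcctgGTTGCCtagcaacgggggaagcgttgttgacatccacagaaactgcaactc
Fam183b: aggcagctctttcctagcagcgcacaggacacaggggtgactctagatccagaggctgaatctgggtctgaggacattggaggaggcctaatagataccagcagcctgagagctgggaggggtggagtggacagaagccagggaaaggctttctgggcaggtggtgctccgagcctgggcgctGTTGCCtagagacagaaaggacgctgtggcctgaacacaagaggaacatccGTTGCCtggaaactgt
Pifo: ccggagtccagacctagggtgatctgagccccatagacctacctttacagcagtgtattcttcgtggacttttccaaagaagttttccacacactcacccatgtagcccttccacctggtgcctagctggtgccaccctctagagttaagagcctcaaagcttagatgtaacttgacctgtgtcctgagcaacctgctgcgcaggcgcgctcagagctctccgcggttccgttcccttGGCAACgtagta
The first match as printed, which is the one farthest from the start, lies 152, 51, 67 and 12 bases before it in Ccdc153, Dynlrb2, Fam183b and Pifo. In Fam183b the second match lies nearer the start. Dynlrb2 (a dynein light chain) had a log2 fold over the AT2 gate of 6.95 ± 0.32 (adjusted p 2.61e-29), and Ccdc153, Fam183b and Pifo were at 1345 to 1843, 954 to 1151 and 273 to 323 CPM in the ciliated-like cells and at no more than 0.382, 0.382 and 2.75 CPM in the AT2 gate.

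**Figure D3:**
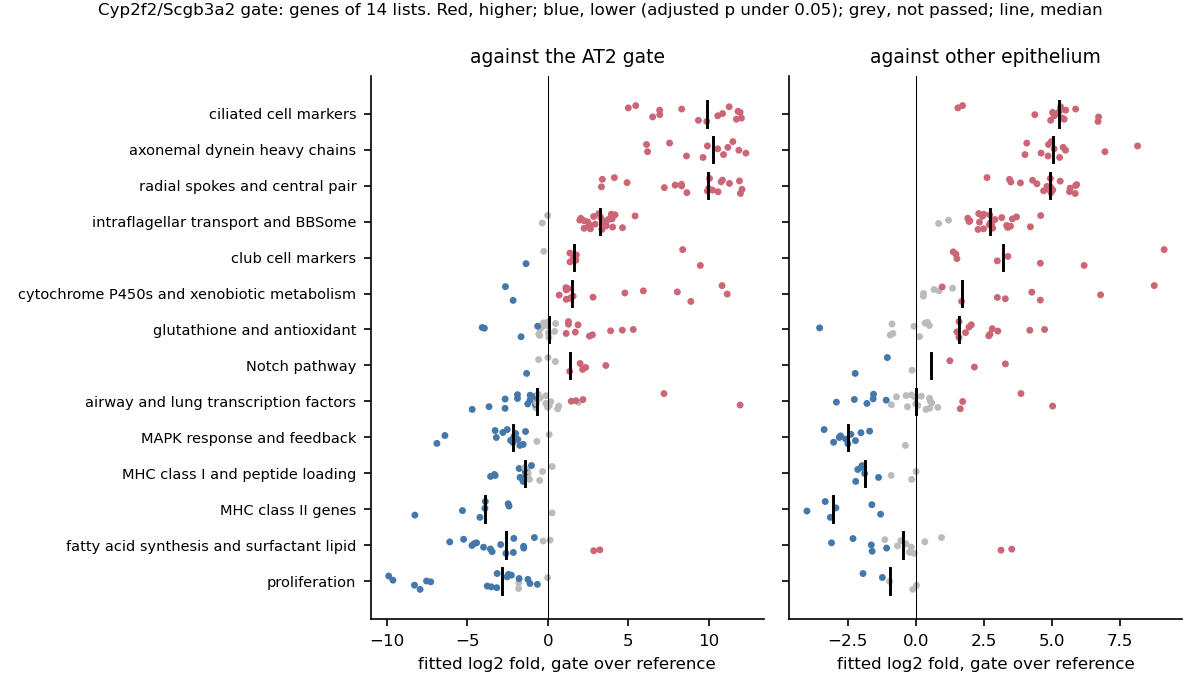
Fitted log2 folds of the genes of 14 lists in the Cyp2f2/Scgb3a2 gate over the AT2 gate (left) and over other epithelium (right), 1 point per gene, red higher, blue lower and grey not passed at an adjusted p of 0.05, black bars at the list medians. The 15 ciliated markers are all to the right of 0, while the MAPK, MHC class II and proliferation genes lie mostly to the left.

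The list of 23 cytochrome P450 and xenobiotic metabolism genes had 14 higher and 2 lower (Aox3 and Sult1a1) of 16 tested against the AT2 gate (median 1.48), and 8 higher and none lower of 13 against other epithelium (median 1.69), or 4 by DESeq2. Cyp2s1 stood at 1173, 1112 and 1090 CPM in the ciliated-like cells (log2 fold over the AT2 gate 8.04 ± 0.37, adjusted p 5.20e-29). Cyp4b1 was at 818, 618 and 521 CPM (5.93 ± 0.31, adjusted p 3.12e-26), but against other epithelium its log2 fold of 0.86 did not pass (adjusted p 0.0796). Aldh1a1 rose by a log2 fold of 9.47 ± 0.36 (adjusted p 7.84e-33) and Cbr2 by 1.38 ± 0.24 (adjusted p 3.31e-06). Of 25 tested glutathione and antioxidant genes, 10 were higher and 4 lower, with Gstm1, a glutathione transferase, at 3.9 ± 0.26 (adjusted p 3.15e-21). Over all genes tested against the AT2 gate, 17.7% were higher and 15.3% lower, so the lower antioxidant genes were near that share. Against other epithelium the shares over all genes were 19.4% and 15.1%. Of 10 club cell markers tested, 8 were higher and Aldh1a7 was lower against the AT2 gate, and 8 of 8 were higher against other epithelium, or 5 by DESeq2. Among them Scgb1a1 had a log2 fold of 8.37 over the AT2 gate, 6.52 without the few-gene barcodes, and 2.90 when the ciliated-like cells alone were used.

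Sox2, a factor of conducting airways, was at 183, 243 and 201 CPM in the ciliated-like cells and at most 1.53 CPM in the AT2 gate (log2 fold 7.21 ± 0.51, adjusted p 8.90e-20). Nkx2-1, the lung epithelial factor, was lower at 129, 125 and 82.9 CPM against 476, 411 and 376 CPM (-1.88 ± 0.28, adjusted p 6.61e-08). Over the list of airway and lung transcription factors, 5 were higher and 12 lower of 30 tested (median -0.65), with 8 and 8 without TMM scaling and 5 and 8 by DESeq2. Over all genes tested against the AT2 gate, 17.7% were higher and 15.3% lower. The count of higher factors was thus near the share over all genes. In the Notch list, 5 genes were higher (Jag1, Jag2, Hes1, Hes6 and Maml2) and Adam10 was lower of 9 tested. Jag1, a Notch ligand, stood at 409, 194 and 356 CPM against 60.0, 31.3 and 29.1 CPM (2.35 ± 0.29, adjusted p 2.70e-10). The target gene Hes1 rose by 1.36 against the AT2 gate, while its log2 fold against other epithelium was -0.13 (adjusted p 0.842).

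Of 8 MHC class II genes tested, 7 were lower than in the AT2 gate and 0 higher (median -3.89, or -3.17 at bounds), and 6 of 6 were lower against other epithelium. Cd74, the invariant chain, was at 21.5, 129 and 201 CPM in the ciliated-like cells and 2991, 2869 and 4291 CPM in the AT2 gate (-4.21 ± 0.29, adjusted p 3.52e-20). The lower share over all genes tested was 15.3% against the AT2 gate and 15.1% against other epithelium. Of 17 MHC class I and peptide loading genes, 10 were lower and none higher (median -1.42), or 4 lower by DESeq2. Of 17 MAPK response and feedback genes, 15 were lower and 0 higher (median -2.14) against the AT2 gate, and 10 of 11 were lower against other epithelium. DESeq2 called 8 and 2 of them lower. The list summed to 301, 315 and 356 CPM in the ciliated-like cells, against 1830, 2458 and 2070 CPM in the AT2 gate, and was about as low in WT Healthy as in the tumour libraries. Etv5, a factor that responds to EGFR signalling, was at 0 in the ciliated-like cells and at 510, 297 and 329 CPM in the AT2 gate (-6.39 ± 0.51, adjusted p 2.10e-17 over all members). Errfi1, a feedback inhibitor of EGFR, was lower by a log2 fold of -3.20 ± 0.37 (adjusted p 5.20e-11).

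Egfr itself was low in both gates. It was at 21.5, 64.7 and 47.4 CPM in the ciliated-like cells, with 13 of 50 cells positive, and at 8.57, 63.0 and 40.7 CPM in the AT2 gate, and the fit gave -0.48 ± 0.36 (adjusted p 0.351). The counting reference is mouse, and whether reads of the human transgene are counted is not given in the sources used here. The ligand Hbegf was at 0 in the ciliated-like cells, while Nrg1, a ligand of the ERBB family, was at 43.0, 80.8 and 94.8 CPM (5.29 ± 0.67 over the AT2 gate, adjusted p 6.43e-10). Pparg, the gene floxed in both tumour groups, had 1, 0 and 2 UMIs in the ciliated-like cells (10.8, 0 and 23.7 CPM). Its log2 fold of -0.30 ± 1.17 did not pass (adjusted p 0.887), the Cre is not aimed at these cells, and the floxed exons are not named in the labels, so the level does not check the deletion. Csf2, a macrophage growth factor, was at 0 UMIs.

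Of 19 fatty acid and surfactant lipid genes tested against the AT2 gate, 15 were lower and 2 higher (Acsl1 and Acsl3, acyl-CoA synthetases), and of 21 cholesterol genes 11 were lower and 3 higher, or 4 and 2 by DESeq2. Of 20 proliferation genes, 17 were lower (median -2.84, or -1.997 at bounds), against 5 called by DESeq2, and Mki67 was at 0 UMIs in the ciliated-like cells of every library. Dissociation stress genes summed to 10830, 5909 and 6872 CPM in the ciliated-like cells against 3034, 3001 and 2507 CPM in the AT2 gate. In other epithelium they summed to 4566, 4948 and 5795 CPM, so the tumour libraries differed less there. Against the AT2 gate only 3 of 20 tested were higher (Hspb1, Hsph1 and Hsp90aa1) and 6 lower, or 2 lower by DESeq2. Over all genes tested against the AT2 gate, 17.7% were higher and 15.3% lower, so the higher stress genes were near that share. Hsp90aa1, a cytosolic chaperone, stood at 5790, 3516 and 3567 CPM (2.47 ± 0.23). Stress genes were highest in WT Healthy, and their part in the other differences was not tested.

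**Figure D4:**
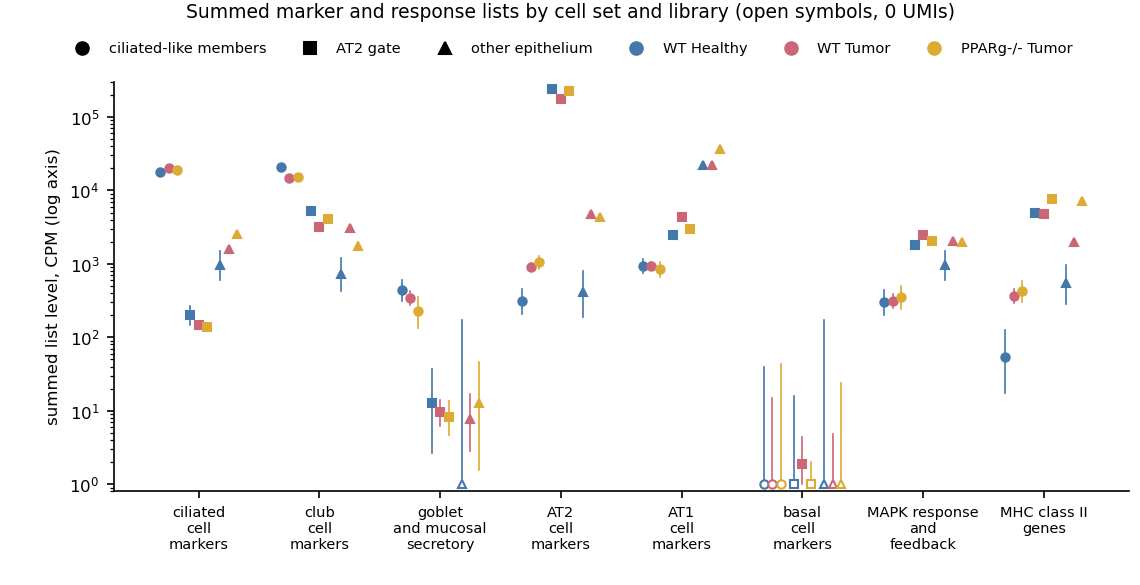
Summed CPM of 8 gene lists (log axis) in the ciliated-like cells, the AT2 gate and other epithelium of each library, with exact 95% Poisson intervals as lines and open symbols for 0 UMIs; other epithelium of WT Healthy is 3 cells. The ciliated markers stand at 17890 to 20190 CPM in the ciliated-like cells of all 3 libraries, and the MAPK list at 301 to 356 CPM.

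Across the 3 libraries the levels within the ciliated-like cells varied for a few genes. Id1, a target of BMP signalling, stood at 10.8, 182 and 201 CPM and Id3 at 0, 72.8 and 154 CPM, and Cd74 was likewise lowest in WT Healthy. The heat-shock genes Hspa8 (2281, 691 and 889 CPM) and Hsph1 (807, 263 and 403 CPM) were highest in WT Healthy. Cxcl17, a mucosal chemokine, was at 893, 857 and 367 CPM. These genes were picked after their values were seen, each value comes from 1 library of 9, 30 or 11 cells, and sex, floxed alleles and group cannot be told apart.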

How the data were processed

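Droplet-based 3' RNA libraries, 1 per group, were analysed. The authors deposited raw UMI counts (build mm10) for every gene and barcode, with no scaling. Cell Ranger 6.0.1 and Seurat 4.0.1 are named in the submitters' processing notes, while the matrix header names Cell Ranger 4. Library totals were 30454790, 46148658 and 44548318 UMIs. The gate was applied to each library as stated in the report. The members, gene lists and markers were chosen with earlier results of these data known, and the 7 ciliary lists and the Foxj1 cells after values were seen.

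Members were clustered with scanpy 1.11.5 (2000 variable genes, 20 components, 15 neighbours, Leiden resolution 0.5) and doublets marked with Scrublet at an expected rate of 6%. Gates were compared with edgeR 4.0.16 (quasi-likelihood test, filterByExpr, TMM, library as a block, threshold 0.05), with DESeq2 1.42.0 as an alternative. The reference sets were AT2 cells (at least 8 UMIs of the AT2 genes and 1 of the epithelial genes, under 4 of Cyp2f2 and Scgb3a2) and other epithelium (at least 4 UMIs of the epithelial genes, under 8 and 4 of the others). The tests were tested on simulated data, where a log2 change of 2 was recovered in 52% of changed genes against the AT2 gate (8783 genes) and 49% against other epithelium (4652 genes), and a log2 change of 1 in 4% of both. False calls numbered 3 and 4. Counts were drawn at a fixed dispersion from pooled means, with no effect of library, and only genes above a minimum expected count were changed. Recovery in the real data can therefore differ. Named genes were Pparg, Egfr, Csf2, Scgb1a1, Scgb3a1, Scgb3a2, Cyp2f2 and Krt8, the 10 largest folds each way among called genes with the same sign in both libraries, and, in each list, called genes first and then up to 3 more by level. Alternatives covered the gate's limits, scaling, low-count filter, block, doublets and libraries.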

Additional observations from a re-analysis of the deposited data

How the results depend on the processing

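With a mitochondrial limit of 5%, the gate held 25 cells in place of 62, and the other gate limits gave 51 to 62. Against the AT2 gate, lower calls were 886 without TMM scaling (in place of 1411), 551 by DESeq2, and 827 and 627 in fits of WT Healthy with WT Tumor and with PPARγ-/- Tumor, where higher calls were 1187 and 864 (in place of 1633); these fits tested fewer genes (5359 and 3484). By DESeq2, calls against other epithelium were 500 higher and 169 lower, in place of 991 and 770. The other 36 alternatives of these counts stayed within 1.5 times. Without TMM scaling the median fold shifted by 0.35 against the AT2 gate and 0.14 against other epithelium, and Pparg changed sign, to 0.0724, in a fold that passed in neither; the cause was not tested. Of the other single values, 547 kept their direction and side of the threshold or moved by less than counting error, 32 moved and 20 no longer passed, most of them genes at 0 on 1 side under DESeq2.

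No replicated comparison of groups was possible because each group has 1 library. The gates were compared in pairs, with the library as a block in the fits. Without the block, 1593 and 1311 genes were called against the AT2 gate and 922 and 646 against other epithelium. The planned ratios between libraries were not run because WT Healthy and PPARγ-/- Tumor hold under 20 members, clusters within single libraries were not drawn, and no library could be left out of the 2-library fits, which then have no residual degrees of freedom. Depth limits single genes, since the gate held 14 cells in PPARγ-/- Tumor. Intervals cover counting error only, and 9 cells carry all WT Healthy values.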

Other observations

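In the Cyp2f2/Scgb3a2 gate, of 13 antimicrobial, antiprotease and mucosal defence genes tested against the AT2 gate, 5 were higher (Pigr, Hp, Cp, Cd55 and Wfdc1) and 6 lower (Slpi, Lcn2, Lyz2, C3, Chil1 and Lrg1), with a median log2 fold of 0.15 beside -0.09 over all genes tested. Over all genes tested, 17.7% were higher and 15.3% lower. Ceruloplasmin (Cp), a copper-binding ferroxidase, stood at 377, 311 and 403 CPM in the ciliated-like cells of WT Healthy, WT Tumor and PPARγ-/- Tumor against 4.29, 6.11 and 12.1 CPM in the AT2 gate (edgeR log2 fold over all members 4.74 ± 0.31 SE, adjusted p 1.93e-21). Lcn2, an iron-chelating lipocalin, was at 0, 4.04 and 11.9 CPM against 549, 1135 and 1413 CPM (-8.35 ± 0.45, adjusted p 1.86e-25).

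The surface proteins Cd24a and Prom1 were chosen after their values were seen. Cd24a, a glycoprotein used to sort ciliated cells, stood at 2055, 2563 and 1931 CPM against 17.1, 74.8 and 90.1 CPM in the AT2 gate (4.05 ± 0.25, adjusted p 1.51e-22), and Prom1, a membrane protein of cell protrusions, at 570, 344 and 213 CPM against at most 0.382 CPM (9.10 ± 0.54, adjusted p 1.86e-23).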
